A study of Mus musculus with 8 samples.

Results

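Mouse embryonic stem cells that lack Dgcr8 and had been given a single microRNA, miR-294, were compared with wild-type (WT) cells, to find which genes 1 microRNA leaves away from the WT level and which it carries past it. The comparison uses 2 libraries of Dgcr8 KO cells after transfection of a miR-294 mimic and 2 libraries of WT cells. All genes with a mean of at least 1 FPKM over these 4 libraries were included, which gave 12493 of 49641 entries. FPKM counts the fragments of a gene relative to its transcript length and to all mapped fragments of a library. Grip1 was the gene just inside this limit, with a mean of 1.00 FPKM, and Cables1 the gene just outside it, with 0.999.

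Every sample is labelled as the embryonic stem cell line V6.5 on a 129/C57BL/6 background. The cells grew in medium with 15% serum and LIF, on gelatin or on irradiated mouse embryonic fibroblast feeders; which of these a sample had is not labelled. Cells received 50 nM of mimic 16 hours after they were plated. The WT columns carry the name mock. The reference without mimic was mock-treated Dgcr8 KO, also with 2 libraries and columns that carry the name mock. A further pair of libraries came from Dgcr8 KO cells with siRNAs against Mbnl1 and Mbnl2 (siMbnl1/2). This pair served for the estimate of the spread and, in a few places, as a further level beside the others. The WT columns are named V65 and the Dgcr8 KO columns ES1, so the parental line may not be shared, and the genotype cannot be told apart from any other difference between the lines. The material is called total RNA in the series design and polyA RNA in the sample labels. Replicates are not stated to be separate cultures, and p-values then measure only the spread between these libraries, which may be technical.

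Most microRNAs are cut from long primary transcripts by the nuclease Drosha with its partner Dgcr8, then trimmed by Dicer and loaded onto Argonaute proteins. The loaded microRNA pairs with messenger RNAs mainly through its seed, bases 2 to 8, and lowers them. WT embryonic stem cells make many families this way, among which the miR-290 cluster is abundant and promotes the short G1 phase of these cells. A synthetic mimic enters the pathway after the Dgcr8 step, so the rescued cells hold the added microRNA while the primary transcripts of the others remain uncut.

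The sequences below show which seeds the mimic shares with other mouse microRNAs. Mature microRNAs were not measured, so which of these the WT cells held is not known from these data. They were taken from RefSeq (build GRCm38.p6, the mm10 assembly), 5′ to 3′, with the seed in capitals. The first 5 share 1 seed; miR-17-5p, miR-20a-5p and miR-106a-5p have the same letters moved by 1 base; miR-19b-3p, miR-92a-3p, miR-15a-5p and let-7g-5p have seeds of their own.
mmu-miR-294-3p: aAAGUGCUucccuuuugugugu
mmu-miR-291a-3p: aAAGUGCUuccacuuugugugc
mmu-miR-295-3p: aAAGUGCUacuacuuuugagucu
mmu-miR-302b-3p: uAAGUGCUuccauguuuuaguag
mmu-miR-302d-3p: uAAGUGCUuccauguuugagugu
mmu-miR-17-5p: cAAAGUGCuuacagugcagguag
mmu-miR-20a-5p: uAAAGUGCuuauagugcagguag
mmu-miR-106a-5p: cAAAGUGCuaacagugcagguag
mmu-miR-19b-3p: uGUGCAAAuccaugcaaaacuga
mmu-miR-92a-3p: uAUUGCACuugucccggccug
mmu-miR-15a-5p: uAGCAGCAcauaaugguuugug
mmu-let-7g-5p: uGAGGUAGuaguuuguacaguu

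Differences are miR-294 minus WT in mean log2(FPKM + 1), given with the standard error; a call means an adjusted p from limma (Benjamini-Hochberg) under 0.05, and each group holds 2 libraries. On this scale the fold change of low genes is understated. The labelled cell type matched its markers. Pou5f1, the central pluripotency factor, was at 1028 and 1045 FPKM in WT and at 1060 and 1078 with miR-294, and the 8 stem cell markers summed to 5256 and 5206 in WT and 5235 and 5340 with miR-294. The 12 fibroblast markers summed to between 5.88 and 7.66 in the 4 libraries, with Postn, Fap, Lum and Dcn at 0.0626 FPKM or less in each. Among them Twist1 was at 2.45 and 2.59 in WT and 2.63 and 3.14 with miR-294, and Col1a2 at 0.246 and 0.5 and at 0.0275 and 0.0232. Thy1 was higher, at 2.71 and 1.94 in WT and 3.64 and 3.76 with miR-294 (0.51, adjusted p = 0.0265, limma), a call lost without WT replicate 2 or either miR-294 library and without the FPKM limit (adjusted p up to 0.169). The 5 trophoblast markers summed to 5.35 and 5.16 in WT and 11.2 and 11.5 with miR-294. A wider list of 14 trophoblast markers, which holds the abundant keratins, summed to 139 and 131 in WT and 99.8 and 98.4 with miR-294. Of its 11 members tested, 3 were higher and 2 lower, beside 11.7% and 15.4% of all genes. In bulk samples, fewer cells of a type and less RNA per cell cannot be told apart. Library sums of FPKM ran from 542209 to 571508, and the read depth behind them is unknown.

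Dgcr8, the deleted gene (ENSMUSG00000022718.11, chromosome 16, 18253948 to 18289249, minus strand), was at 22.9 and 21.9 FPKM in WT and at 6.81 and 7.28 with miR-294. It differed by -1.54 ± 0.10 in the rescued cells (adjusted p = 1.1e-04, limma), and the mock-treated Dgcr8 KO libraries stood at 7.89 and 8.5. A value for the whole gene cannot tell which exons are still transcribed.

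Of the 12493 genes, 3388 were called (27.1%). With miR-294, 1462 were higher (11.7%) and 1926 lower (15.4%), and the median over all genes was -0.06. The balance turned with the scaling, with 1841 higher and 1677 lower after median-of-ratios scaling and 1722 and 1654 after quantile normalization. A difference of at least 2-fold was rarer, with 256 genes higher (2.05%) and 145 lower (1.16%), 401 in all. Of the 401, 317 had Dgcr8 KO on the same side of WT by at least 0.5 (197 higher, 120 lower), 79 had Dgcr8 KO within 0.5 of WT (55 higher, 24 lower), and 5 had Dgcr8 KO on the opposite side of WT by at least 0.5. Dgcr8 KO minus WT and miR-294 minus WT share the WT libraries, so this placement is a description with no test.

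**Figure D1:**
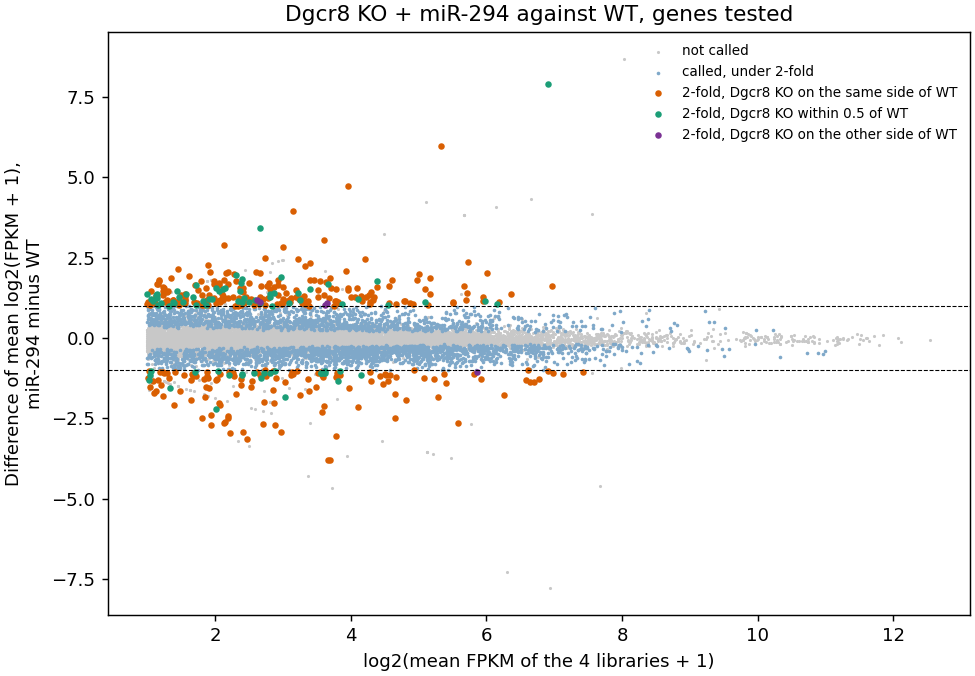
Each point is 1 of the 12493 genes, with log2 of the mean FPKM of the 4 libraries plus 1 on the horizontal axis and the difference of mean log2(FPKM + 1), miR-294 minus WT, on the vertical axis; dashed lines mark 2-fold. Most of the 401 genes past 2-fold are orange, the 317 whose Dgcr8 KO level lay on the same side of WT, with 79 in green whose Dgcr8 KO level lay within 0.5 of WT and 5 in purple on its other side.

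Of the genes that Dgcr8 KO had moved, the largest group came part of the way back. There were 1504 genes with WT and Dgcr8 KO at least 2-fold apart, 925 higher and 579 lower in Dgcr8 KO. The share of that difference left with miR-294 had a median of 0.34 for genes higher in Dgcr8 KO and 0.41 for genes lower there. A share between -0.25 and 0.25, near WT, was found for 507 genes, and one between 0.25 and 0.75 for 719. Near the Dgcr8 KO level, with a share within 0.25 of 1, stood 214 genes, 11.6% of those higher and 18.5% of those lower in Dgcr8 KO. Another 29 lay beyond Dgcr8 KO and 35 past WT.

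**Figure D2:**
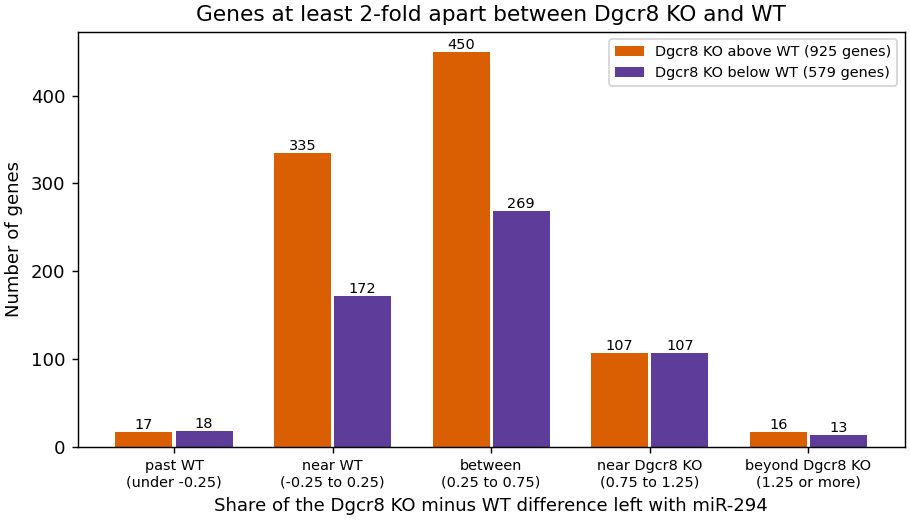
Number of genes by the share of the Dgcr8 KO minus WT difference that was left with miR-294, for 925 genes higher (orange) and 579 genes lower (purple) in Dgcr8 KO by at least 2-fold. The tallest bars are the genes left between WT and Dgcr8 KO (450 and 269), followed by those near WT (335 and 172), while 107 genes of each kind stayed near the Dgcr8 KO level.

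Genes that came back give the scale for the rest. Lin28a, which blocks let-7 maturation, was at 106 and 112 FPKM in WT, 4.73 and 5.52 in Dgcr8 KO, and 94.1 and 96.3 with miR-294. Myc, a transcription factor of cell growth, was at 32.8 and 33.3 in WT, 1.99 and 2.53 in Dgcr8 KO, and 26.7 and 28.1 with miR-294. Both rescued libraries lay below both WT libraries for each gene, by -0.19 ± 0.11 for Lin28a (adjusted p = 0.235, limma) and -0.26 ± 0.18 for Myc (adjusted p = 0.325, limma), and neither passed the test. When the 4 libraries alone were fitted, both did (adjusted p = 0.00963 for Lin28a and 0.00564 for Myc, limma), and they also did when each library was weighted by its group's spread (0.0282 and 0.037). The muscleblind-like splicing regulator Mbnl1 was at 4.80 and 5.12 in WT and 5.17 and 4.92 with miR-294 (0.02 ± 0.10, adjusted p = 0.899, limma), and its relative Mbnl2 at 12.8 and 12.9 in WT and 13.2 and 14.4 with miR-294 (0.09 ± 0.12, adjusted p = 0.604, limma). The sign for Mbnl1 turned when WT replicate 1 (-0.02) or miR-294 replicate 1 (-0.01) was left out.

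Transcripts that carry microRNA hairpins were among the genes left highest. Mir17hg, the primary transcript of the miR-17 to miR-92 cluster (ENSMUSG00000089726.2, chromosome 14, 115042879 to 115046727, plus strand), was at 16.1 FPKM in both WT libraries, 76.1 and 85.3 in Dgcr8 KO, and 82.8 and 92.7 with miR-294. It was higher than WT by 2.37 ± 0.10 (adjusted p = 2.03e-05, limma), and its difference from Dgcr8 KO was 0.12. Its exon holds the hairpins of miR-17, miR-18, miR-19a, miR-20a, miR-19b-1 and miR-92-1, whose mature sequences hold 3 of the seeds shown above. Kis2 (ENSMUSG00000086173.7, chromosome X, 52742563 to 52744960, minus strand), whose 3′ end lies at the Mir106a hairpin, was at 0.0724 and 0.23 in WT, 12.5 and 11 in Dgcr8 KO, and 29.2 and 29 with miR-294. Its difference of 4.71 ± 0.12 was the largest increase outside predicted genes, small RNA genes and pseudogenes (adjusted p = 2.51e-06, limma), and the rescued cells were also above Dgcr8 KO, by 1.24 (adjusted p = 1.6e-04, limma).

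Other primary transcripts were higher too. Mirg, from the imprinted Dlk1 to Dio3 domain, was at 12.7 and 11.4 in WT and 49.0 and 51.8 with miR-294 (1.98 ± 0.09). Mir22hg, the host of miR-22, was at 8.55 and 10.2 in WT and 30.8 and 29.9 with miR-294 (1.60 ± 0.09). Both rescued libraries stood well above both WT libraries in each case. E130102H24Rik, host of Mir101a, 4833445I07Rik, host of Mir191 and Mir425, and 6720427I07Rik, host of Mirlet7d, were higher by 1.85, 1.77 and 1.23. Dleu2, host of Mir16-1 in an intron, was higher by 1.52.

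In the annotation, 12 non-coding genes tested have a hairpin in an exon. Of these, 7 were higher and 1 lower, with a median of 1.08, whereas the 1029 non-coding genes with no hairpin on their strand had 11.4% higher and a median of -0.08. The exception was H19, which holds Mir675 and was at 15.6 and 15.3 FPKM in WT and 8.16 and 8.08 with miR-294 (-0.85 ± 0.25, adjusted p = 0.0392, limma), a call lost without any 1 of the 4 libraries (adjusted p up to 0.156). Of 91 coding genes with a hairpin in an exon, 12 were higher and 13 lower, with a median of -0.03. Among 336 genes with hairpins in introns only, 12.5% were higher and 12.2% lower. The split into coding and non-coding genes was made after the values were seen. Without it, the 103 genes with a hairpin in an exon had 18.4% higher and 13.6% lower, with a median of 0.01. Over all genes, 11.7% were higher and 15.4% lower. In the gene list of microRNA host transcripts, 7 of 28 tested were higher and 3 lower, with a median of 0.16. The lower members were H19, Ftx (-0.52) and Sfmbt2 (-2.02). The hairpin reference held no entry for some microRNA families, miR-124 among them. Hosts of such families may therefore be counted here as genes with no hairpin.

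Some non-coding genes that end before a hairpin were left high too, an observation also made after the values were seen. Gm27019, which ends at Mir29b-1, was at 0.137 and 0 in WT and 17.4 and 13.8 with miR-294 (3.95 ± 0.24). Lncpint, the next gene upstream on the same strand, was at 0.0647 and 0 in WT, 9.65 and 9.84 in Dgcr8 KO, and 6.21 and 7.24 with miR-294 (2.90 ± 0.27, adjusted p = 4.33e-04, limma). Nespas, the imprinted antisense transcript at the Gnas locus, with Mir298 13652 bases beyond its 3′ end, was at 1.52 and 1.79 in WT, 21.7 and 20.8 in Dgcr8 KO, and 20.5 and 21.1 with miR-294 (3.04 ± 0.15). C430049B03Rik, 697 bases upstream of Mir322, was higher by 1.64 ± 0.14. Of the 12 genes with no hairpin inside and 1 within 1000 bases of their 3′ end, 3 were higher and 1 lower (11.7% and 15.4% over all genes). The 3 were Gm27019, C430049B03Rik and Kis2, given above. Nespas and Lncpint are not among the 12.

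Several genes for proteins that act with the loaded microRNA were higher as well. Of 10 Argonaute, Tnrc6 and partner genes tested, 6 were higher (11.7% of all genes) and 0 lower (median 0.38, against -0.06 over all genes), and 3 were higher with any 1 of the 4 libraries left out. Ago1 was at 9.69 and 9.90 FPKM in WT and 16.1 and 15.4 with miR-294 (0.64 ± 0.08), and the helicase Mov10, an Argonaute partner, at 40.3 and 40.2 in WT and 65.9 and 61.4 with miR-294 (0.65 ± 0.13, adjusted p = 0.0113, limma). In Dgcr8 KO both were higher still, at 37.9 and 34.4 for Ago1 and 167 and 137 for Mov10. Ago2, named after its values were seen, stood at 20.3 and 20.8 in WT and 19.9 and 19.6 with miR-294 (-0.05). Of 15 microRNA processing and export genes, Dgcr8 was lower and Drosha higher (40.1 and 40.8 against 50.2 and 50.1, 0.30 ± 0.06, adjusted p = 0.00995, limma), and 13 were not called. The calls of Mov10 and Drosha were lost when any 1 of the 4 libraries was left out, with an adjusted p of up to 0.0944.

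The 5 genes placed past WT by at least 2-fold were of different kinds. Fgf15, a fibroblast growth factor, was at 2.57 and 2.99 FPKM in WT, 1.61 and 1.15 in Dgcr8 KO, and 7.33 and 7.77 with miR-294 (1.18 ± 0.14, adjusted p = 0.00139, limma). Ripply1, a transcriptional corepressor of somite formation, was at 2.54 and 3.43, 1.41 and 1.19, and 7.65 and 7.67 in the same order (1.13 ± 0.13). Pim2, a serine/threonine kinase of cell survival, was at 6.66 and 7.37, 3.93 and 3.62, and 16.7 and 15.5 (1.09 ± 0.11). In all 3 genes the WT libraries lay between Dgcr8 KO and miR-294 without overlap. Ubap1l was at 7.26 and 6.95 in WT, 4.05 and 2.63 in Dgcr8 KO, and 14.4 and 16.4 with miR-294 (1.02 ± 0.25, adjusted p = 0.0208, limma), a call lost without any 1 of the 4 libraries (adjusted p up to 0.113) and without the FPKM limit. Jund, a subunit of the AP-1 transcription factor, was the 1 such gene below WT, at 80.7 and 73.6 in WT, 130 and 106 in Dgcr8 KO, and 38.7 and 35.3 with miR-294 (-1.04 ± 0.14, adjusted p = 0.00227, limma). It lies on chromosome 8, whose genes had a median of -0.47.

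Counted at any size, and with these 5 included, 60 genes called higher and 81 called lower lay past WT. Dnmt3l, the cofactor of the de novo DNA methyltransferases, was at 240 and 234 FPKM in WT, 75.1 and 75.2 in Dgcr8 KO, and 432 and 435 with miR-294 (0.87 ± 0.14, adjusted p = 0.0038, limma). Its partner Dnmt3a went only part of the way, at 144 and 143 in WT, 26.3 and 19 in Dgcr8 KO, and 54.1 and 55.1 with miR-294 (-1.38 ± 0.18). The other de novo enzyme Dnmt3b, named after its values were seen, was at 54.7 and 53.1 in WT and 79.3 and 78.9 with miR-294 (0.55 ± 0.09). The RNA of these 3 genes, whose proteins act in new DNA methylation, was therefore on different sides of WT. Protein was not measured. Chac1, a glutathione-degrading enzyme, was past WT by 0.99 ± 0.10, at 14.4 and 12.7 in WT and 27.7 and 28.2 with miR-294. Mycl was past it by 0.70 ± 0.13, a call lost without WT replicate 1 or miR-294 replicate 1 (adjusted p of 0.0571 and 0.0643, limma).

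Among genes whose Dgcr8 KO level lay within 0.5 of WT, Lef1, the Wnt pathway transcription factor, was the largest increase of those named by the rule. It was at 0.831 and 1.23 FPKM in WT, 0.323 and 0.768 in Dgcr8 KO, and 6.95 and 6.73 with miR-294 (1.96 ± 0.17, adjusted p = 3.13e-04, limma). The neurofilament gene Nefl was at 8.39 and 8.5 in WT and 31.5 and 31.3 with miR-294 (1.78 ± 0.32), and its neighbour Nefm at 1.36 and 1.59 in WT and 7.27 and 6.75 with miR-294 (1.70 ± 0.22). The call of Nefl was lost without WT replicate 1 or 2 (adjusted p = 0.0549 and 0.0511, limma). Guca1a, a calcium-binding activator of guanylate cyclase, was higher by 1.67 ± 0.12. On the lower side were Cpe, carboxypeptidase E (12.5 and 11.1 in WT, 2.61 and 2.52 with miR-294, -1.85 ± 0.10), and Got1l1 (-1.33 ± 0.20), both on chromosome 8, the NAD synthesis enzyme Qprt (-1.23 ± 0.27) and the co-chaperone Bag2 (-1.16 ± 0.13). Qprt lost its call without any 1 of the 4 libraries (adjusted p up to 0.0816).

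**Figure D3:**
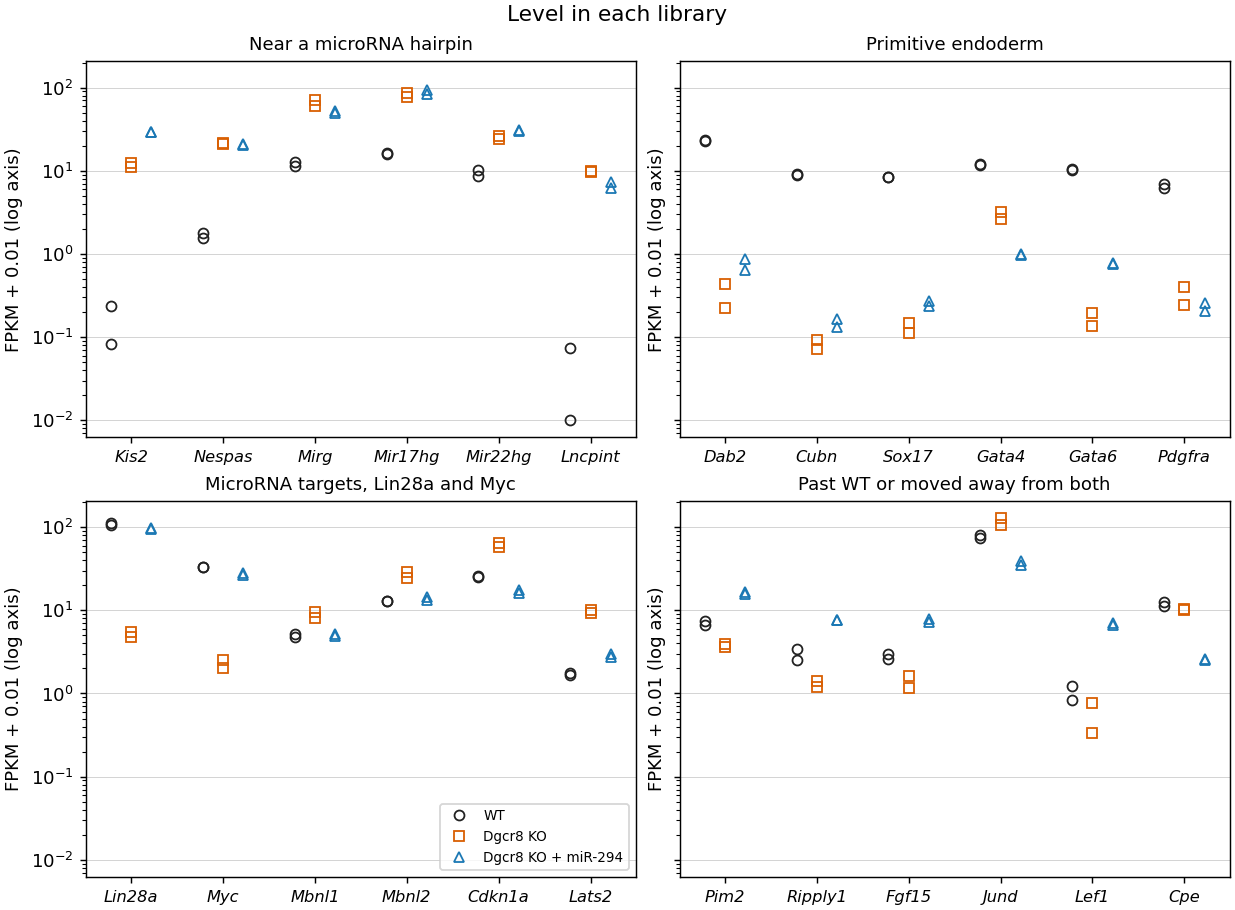
FPKM plus 0.01 on a log axis in each library of WT (circles), Dgcr8 KO (squares) and Dgcr8 KO with miR-294 (triangles), for 24 genes in 4 panels. The transcripts near hairpins sit with Dgcr8 KO far above WT and the primitive endoderm genes with Dgcr8 KO far below it, Lin28a, Myc, Mbnl1 and Mbnl2 sit close to WT, and Pim2, Ripply1, Fgf15 and Lef1 sit above both other groups.

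The largest decreases included markers of primitive endoderm, the extraembryonic lineage that appears in a small share of cells in serum cultures. Dab2, an endocytic adaptor of this lineage (ENSMUSG00000022150.16, chromosome 15, 6299788 to 6440712, plus strand), was at 22.8 and 23.7 FPKM in WT, 0.43 and 0.214 in Dgcr8 KO, and 0.869 and 0.63 with miR-294 (-3.80 ± 0.13, adjusted p = 1.46e-05, limma). Cubn, an endocytic receptor, was at 8.97 and 9.01 in WT and 0.121 and 0.153 with miR-294 (-3.14 ± 0.10). The transcription factor Sox17 was at 8.43 and 8.41 in WT and 0.262 and 0.228 with miR-294 (-2.92 ± 0.11). Of 16 primitive and visceral endoderm markers tested, 14 were lower, 13 of them by at least 2-fold, and 0 higher, with a median of -2.21, while Lamc1 (-0.19) and Fst (0.40) were not called; 14 were also lower with any 1 of the 4 libraries left out. Over all genes, 15.4% were called lower, 1.16% by at least 2-fold, and 11.7% were called higher. The 7 markers that define primitive endoderm, Gata6, Gata4, Sox17, Sox7, Pdgfra, Dab2 and Foxa2, summed to 65.7 in both WT libraries, 4.34 and 3.61 in Dgcr8 KO, and 4.48 and 4.24 with miR-294. None of the 7 was at 0 in a WT or miR-294 library. Gata6 stood at 0.126 and 0.183 in Dgcr8 KO and 0.741 and 0.777 with miR-294, Gata4 at 3.15 and 2.63 and at 0.994 and 0.967, so the members did not share an order between these groups. Srgn, a secretory granule proteoglycan outside the list, differed by -3.78 ± 0.17, at 21.4 and 23.8 in WT and 0.63 and 0.789 with miR-294. Whether the share of endoderm cells in the cultures differed was not tested.

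Primed epiblast markers were higher, the state that follows naive pluripotency in the embryo. Of 11 tested, 9 were higher and 0 lower, with a median of 0.60, and 4 reached 2-fold; without 1 WT or miR-294 library 6 or 7 were higher. Over all genes, 11.7% were called higher and 15.4% lower, and 2.05% were higher by at least 2-fold. Zic2, a zinc-finger factor, was at 3.61 and 3.86 FPKM in WT, 21.3 and 20.6 in Dgcr8 KO, and 15.5 and 15.2 with miR-294 (1.79 ± 0.07, adjusted p = 2.03e-05, limma). Lef1, also on this list, was given above, and Otx2 and Zic5, named after their values were seen, were each higher by 1.16. The list median was -0.33 in Dgcr8 KO minus WT, and Dnmt3b, Foxd3 and Lef1 were below WT there and above it with miR-294. Of 26 core and naive pluripotency factors, 6 were higher and 2 lower (median 0.08). Klf2, a naive factor on chromosome 8, was at 44.8 and 44.9 in WT, 176 and 159 in Dgcr8 KO, and 119 and 116 with miR-294 (1.37 ± 0.07), and Sox2 at 134 and 139 in WT and 197 and 198 with miR-294 (0.53 ± 0.07).

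Other early states had fewer members called, beside 11.7% of all genes called higher and 15.4% lower. Of 17 genes of the 2-cell-like state, 6 were higher and 0 lower, with a median of 0.81, and 1 was higher without any 1 of the 4 libraries; many belong to multicopy families (Zscan4, Usp17l, Tcstv) whose reads may be shared. Tdpoz4 was at 0.132 and 0.324 FPKM in WT and 2.15 and 2.22 with miR-294 (1.38 ± 0.37, adjusted p = 0.0307, limma), and Gm5662 at 4.32 and 4.66 in WT and 15.0 and 14.3 with miR-294 (1.51 ± 0.38). Both lost their call without any 1 of the 4 libraries, with an adjusted p of up to 0.154, and without the FPKM limit, and Gm5662 also with quantile normalization. Hand1, a trophoblast and mesoderm factor, was at 1.27 and 1.40 in WT, 1.47 and 1.58 in Dgcr8 KO, and 4.13 and 4.76 with miR-294 (1.22 ± 0.25, adjusted p = 0.011, limma), a call also lost without any 1 of the 4 libraries (adjusted p up to 0.0723). Bmp4, the signalling ligand, came part of the way back, at 27.3 and 27.4 in WT, 0.808 and 0.74 in Dgcr8 KO, and 10.7 and 9.84 with miR-294 (-1.33 ± 0.09). Of 7 neuroectoderm markers, 3 were higher and 1 lower, and 1 and 1 with any 1 of the 4 libraries left out; Pax6 was higher (0.95 ± 0.13) and Sox1, on chromosome 8, lower (-0.98 ± 0.12). Keratin 8 (Krt8), of the trophoblast list, differed by -1.0 ± 0.10, at 59.0 and 54.8 in WT and 28.3 and 27.7 with miR-294.

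**Figure D4:**
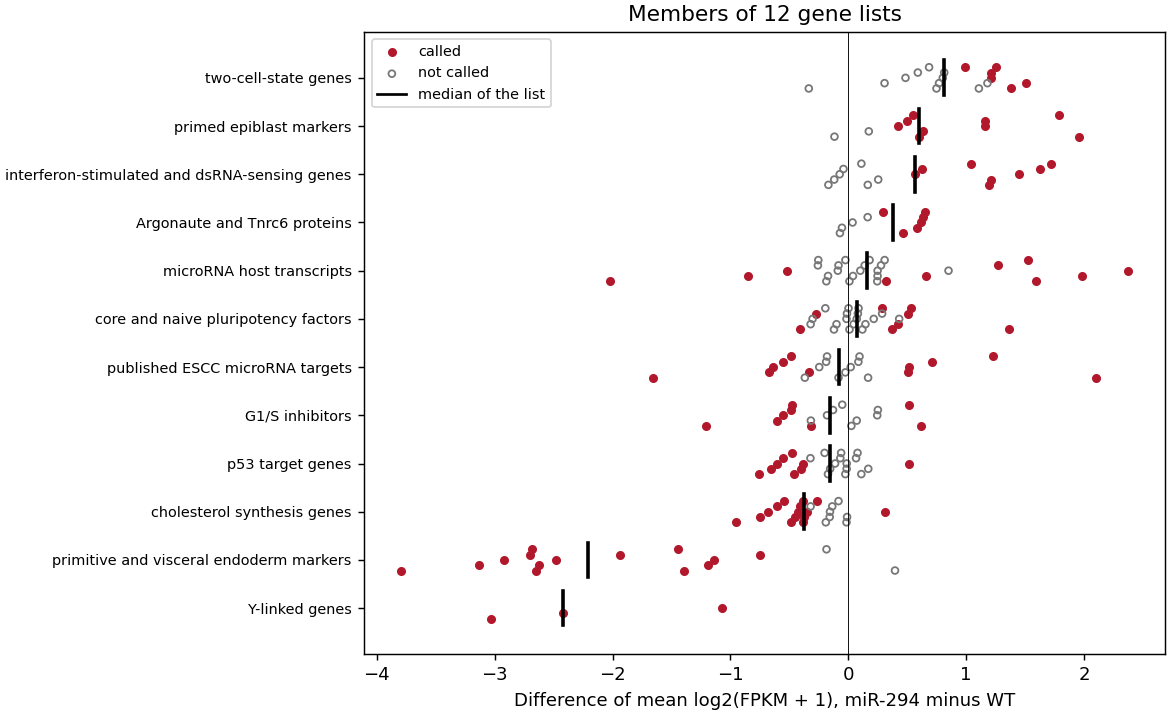
Difference of mean log2(FPKM + 1), miR-294 minus WT, for each tested member of 12 gene lists; filled points were called, open points were not, and the bar is the list's median. Primitive endoderm markers (median -2.21) and Y-linked genes lie far to the left, cholesterol synthesis genes (median -0.38) to the left, and 2-cell-state (0.81) and primed epiblast markers (0.60) to the right.

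Published targets of the ESCC (embryonic stem cell cycle) microRNAs, the class with the miR-294 seed, had a median near WT, with members called on both sides. Of 21 tested, 5 were higher and 6 lower, with a median of -0.08 (0.88 in Dgcr8 KO minus WT), and without 1 WT or miR-294 library 3 to 5 were higher and 3 to 6 lower. Cdkn1a, the inhibitor p21, named after its values were seen, was at 25.9 and 24.9 FPKM in WT, 64.4 and 57.1 in Dgcr8 KO, and 17.8 and 16.1 with miR-294 (-0.56 ± 0.08, adjusted p = 0.00341, limma). Lats2, the Hippo kinase, also named afterwards, was at 1.74 and 1.65 in WT, 10.1 and 9.38 in Dgcr8 KO, and 2.98 and 2.74 with miR-294 (0.52 ± 0.10), a call lost without WT replicate 1 or 2 or miR-294 replicate 1 (adjusted p up to 0.0749). So 1 of these targets lay below WT and the other above it. Over all genes, 11.7% were called higher and 15.4% lower. Of 16 inhibitors of the G1 to S transition, 2 were higher and 6 lower (median -0.16), and 3 or 4 were lower without 1 WT or miR-294 library. Rb1, the retinoblastoma protein, was at 2.80 and 2.89 in WT, 10.5 and 11.6 in Dgcr8 KO, and 5.36 and 4.49 with miR-294 (0.62 ± 0.10), and the imprinted inhibitor Cdkn1c lay between the other groups, at 36.7 and 32.6 in WT, 6.35 and 6.12 in Dgcr8 KO, and 14.6 and 14.2 with miR-294 (-1.21 ± 0.10). Of 23 p53 target genes, 1 was higher and 8 lower (median -0.15), and 3 were lower with any 1 of the 4 libraries left out; Mdm2 differed by -0.75 ± 0.08 and cyclin G1 (Ccng1) by -0.66 ± 0.11.

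Ccnd2, a D-type cyclin that drives G1 progression, was the list member left highest. It was at 4.84 and 4.77 FPKM in WT, 30.0 and 31.9 in Dgcr8 KO, and 23.9 and 23.7 with miR-294 (2.10 ± 0.08, adjusted p = 1.78e-05, limma). Dkk1, the Wnt inhibitor, was at 2.47 and 2.14 in WT and at 0.0316 and 0.0686 with miR-294 (-1.65 ± 0.12), near its Dgcr8 KO values of 0.0423 and 0.0289. Mycn, a Myc relative, was at 44.7 and 45.3 in WT, 68.9 and 66.6 in Dgcr8 KO, and 99.1 and 99.3 with miR-294 (1.12 ± 0.07). For both Ccnd2 and Mycn the 3′ UTR of 1 transcript holds a match to the miR-294 seed and matches to other families. Other named genes with a miR-294 match lay above WT, such as Lef1 and Pfkp, or below it, such as Bag2 and Ccng1. The part of any site in these levels was not tested. The sites below are from the GENCODE M21 transcripts on mm10, minus strand, 5′ to 3′, with the match in capitals. For each gene the first 2 sites overlap. Matches of Ccnd2 to miR-26 and miR-205 and of Mycn to miR-30 are not printed.
Ccnd2 miR-294 site, chr6:127129330-127129358: tccattagaaaAGCACTTtgaaaattttg
Ccnd2 miR-17 site, chr6:127129329-127129357: ccattagaaaaGCACTTTgaaaattttgg
Ccnd2 miR-19 site, chr6:127128813-127128841: gttttttttttTTTGCACaattataattg
Ccnd2 miR-15 site, chr6:127128531-127128559: gtttcacggtgTGCTGCTattttagaaac
Mycn miR-294 site, chr12:12936129-12936157: ctgcaccttagAGCACTTtgaaatacctc
Mycn miR-17 site, chr12:12936128-12936156: tgcaccttagaGCACTTTgaaatacctca
Mycn miR-19 site, chr12:12936959-12936987: gtcactgccacTTTGCACattttgatttt

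Across genes, matches to the seeds went with small shifts. A 3′ UTR was available for 11261 of the genes (90.1%), and only its own strand was searched. With 0 matches to AGCACTT, the miR-294 seed match, the median difference was -0.06, with 1 match -0.03 (14.1% of genes), and with 2 or more -0.00 (3.37%). For GCACTTT, the miR-17 seed match, which shares 6 letters with it, the medians were -0.07, 0.01 (12.2% of genes) and 0.06 (2.25%), and 10.8%, 17.0% and 20.6% of the genes were called higher. The same medians in Dgcr8 KO minus WT were -0.06, 0.21 and 0.47 for miR-17. For TTTGCAC, the miR-19 match, 2 or more sites went with a median of 0.05 (1.93% of genes) and for GTGCAAT, the miR-92 match, with 0.11 (0.666%). For CTACCTC, the let-7 match, the medians were -0.06, -0.04 (9.11%) and -0.05 (1.38%).

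The 3′ UTRs with more matches were longer, with a median of 973 bases for 0 and 3866 for 2 or more miR-17 matches. For 3 families not typical of these cells, genes with 2 or more matches had medians of 0.05 (miR-206, ACATTCC, 1.39% of genes), 0.02 (miR-205, ATGAAGG, 1.39%) and -0.05 (miR-216, TGAGATT, 1.93%), with UTRs of 3836, 3751 and 4259 bases. Of these genes, 20.5%, 16.7% and 13.8% were called higher, against 11.3%, 11.2% and 11.5% with 0 matches. Their medians in Dgcr8 KO minus WT were 0.25, 0.27 and 0.07. A rise in the share called higher was therefore not particular to the miR-17 match. Among the 158 genes at least 2-fold higher with Dgcr8 KO on the same side and a 3′ UTR, 19% had a miR-294 match and 17.1% a miR-17 match, against 17.4% and 14.4% of all 11261. Among the 817 genes called higher at any size on that side the shares were 24.6% and 26.7%, with a median UTR of 1577 bases against 1139. The families not typical of these cells were also more frequent among the 817. Their shares were 16.0% (miR-206), 16.4% (miR-205) and 15.3% (miR-216), against 11.2%, 11.5% and 12.7% of all 11261. A match is a description of letters and not a site shown to act.

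Interferon-stimulated and RNA-sensing genes remained above WT in part, beside 11.7% of all genes called higher and 15.4% lower. Of 15 tested, 8 were higher and 0 lower, 6 of them by at least 2-fold, with a median of 0.57 (1.03 in Dgcr8 KO minus WT). Oas1a, a sensor of double-stranded RNA, was at 1.09 and 0.791 FPKM in WT, 3.90 and 4.02 in Dgcr8 KO, and 5.22 and 5.56 with miR-294 (1.72 ± 0.13, adjusted p = 1.81e-04, limma). Ifitm1, an interferon-induced membrane protein, was at 58.3 and 61.6 in WT, 926 and 684 in Dgcr8 KO, and 183 and 191 with miR-294 (1.63 ± 0.15). Oas1a with miR-294 thus lay above its Dgcr8 KO level and Ifitm1 between the other 2 groups. The rescued cells had received a double-stranded RNA mimic, while the WT samples are titled control and their columns are named mock. The part of the mimic in these values was not tested. Of 10 genes of MHC class I and peptide loading, 1 was higher and 4 lower; the loading factor tapasin (Tapbp) was higher by 0.66 ± 0.11, and the immunoproteasome subunit Psmb10, on chromosome 8, lower (-0.80 ± 0.13).

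Metabolic and signalling lists held smaller differences, beside 11.7% of all genes called higher and 15.4% lower. Of 23 cholesterol synthesis genes, 14 were lower and 1 higher, with a median of -0.38 (-0.33 in Dgcr8 KO minus WT), and 1 to 3 were lower when 1 WT or miR-294 library was left out. Msmo1, a sterol oxidase on chromosome 8, was at 44.7 and 46.2 FPKM in WT and 21.7 and 24.4 with miR-294 (-0.95 ± 0.18, adjusted p = 0.00869, limma), and Stard4, a cholesterol transport protein, at 8.49 and 8.69 in WT and 4.54 and 4.89 with miR-294 (-0.75 ± 0.09). The call of Msmo1 was lost without WT replicate 1 or 2 or miR-294 replicate 1 (adjusted p up to 0.0663). Of 19 genes of FGF and ERK feedback, 4 were higher and 7 lower, and the phosphatase Dusp4, on chromosome 8, was at 17.7 and 18.9 in WT and 7.62 and 7.42 with miR-294 (-1.18 ± 0.10). Id2, a BMP-responsive inhibitor of differentiation factors, was at 11.3 and 10.1 in WT, 46.6 and 45.4 in Dgcr8 KO, and 34.2 and 35.1 with miR-294 (1.61 ± 0.11). The Hippo pathway regulator Nf2 was higher by 0.87 ± 0.08 (47.4 and 48.7 in WT, 90.6 and 86.9 with miR-294). Of the epithelial splicing regulators, Esrp1 was higher (4.79 and 4.70 in WT, 12 and 13.4 with miR-294) and Esrp2, on chromosome 8, lower (-0.74 ± 0.15), a call lost without WT replicate 1 or miR-294 replicate 1 (adjusted p of 0.0791 and 0.0712, limma).

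Imprinted genes went both ways, beside 11.7% of all genes called higher and 15.4% lower. Of 34 tested, 8 were higher and 11 lower (median 0.00), and 5 and 5 with any 1 of the 4 libraries left out. Nespas and Mirg, described above, were the highest. Sfmbt2, a Polycomb-related gene whose intron holds a large microRNA cluster, was at 10.7 and 10.8 FPKM in WT, 1.80 and 1.96 in Dgcr8 KO, and 1.78 and 2.01 with miR-294 (-2.02 ± 0.12, adjusted p = 7.99e-05, limma), so it stood at the Dgcr8 KO level. Fetub, a secreted protease inhibitor, was likewise left at it on the high side, at 4.76 in both WT libraries, 30.4 and 28.6 in Dgcr8 KO, and 30.1 and 30.7 with miR-294 (2.45 ± 0.07).

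A whole chromosome was lower. The 689 tested genes of chromosome 8 had a median of -0.47 in miR-294 minus WT, against -0.04 over the chromosomes other than 8 and Y, and 62.3% of them were called lower, against 12.6% elsewhere. On chromosome 8, 90.1% of genes were below zero, and their median in Dgcr8 KO minus WT was -0.45. In chromosome 8 genes of at least 10 FPKM (402 genes), the median level relative to WT was 0.694 in both rescued libraries, 0.713 and 0.663 in Dgcr8 KO and 0.684 and 0.688 with siMbnl1/2. In 8 consecutive runs of 86 or 87 genes along the chromosome, the median of miR-294 minus WT was between -0.50 and -0.42. Of the 145 genes at least 2-fold lower, 28 lay on chromosome 8. The Y-linked genes were lower as well, with Eif2s3y at 24.1 and 23.1 FPKM in WT and 1.83 and 2.18 with miR-294 (-3.04 ± 0.28), and Uty at 6.49 and 6.85 in WT and 0.376 and 0.487 with miR-294 (-2.42 ± 0.14). Copy number was not measured, and a difference between the lines cannot be told apart here from the genotype.

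**Figure D5:**
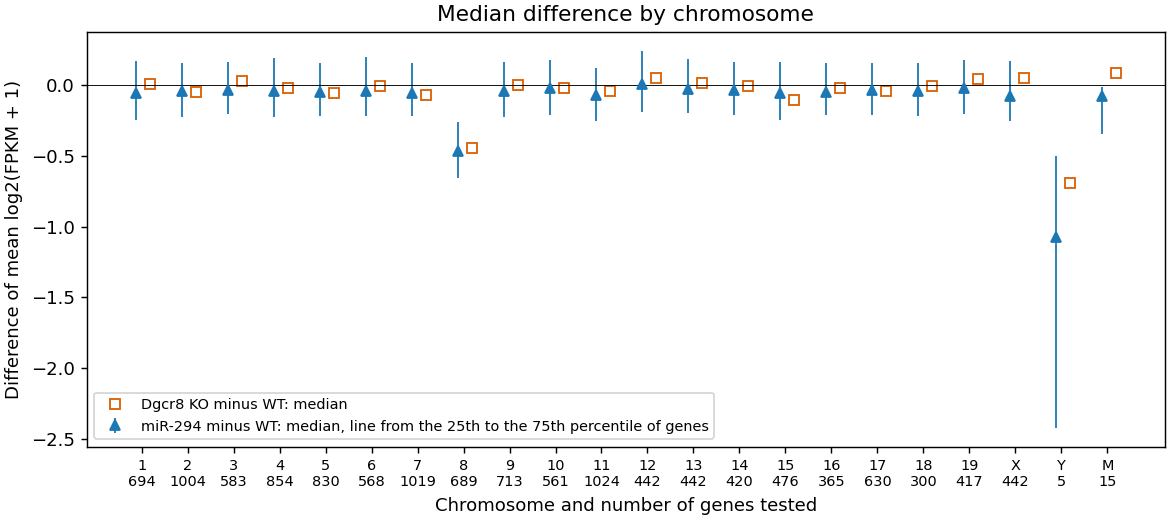
Median difference of mean log2(FPKM + 1) by chromosome, with the number of genes tested under each name; triangles are miR-294 minus WT, with lines from the 25th to the 75th percentile of genes, and open squares are the medians of Dgcr8 KO minus WT, which shares the WT libraries. Chromosome 8 (median -0.47) and the 5 genes of chromosome Y (-1.07) stand below all other chromosomes.

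Without chromosomes 8 and Y, 2800 genes were called, 1391 higher and 1409 lower, and 361 by at least 2-fold (247 higher, 114 lower). With the chromosome 8 genes shifted by their median, 2980 were called, 1475 higher and 1505 lower, and Esrp2, Psmb10 and Msmo1 lost their calls. Klf2, Cpe, Got1l1, Jund, Sox1, Tfdp1, Wwc2 and Dusp4 kept theirs after that shift, at 1.80, -1.41, -0.89, -0.60, -0.55, -0.43, -0.40 and -0.74. Jund was then no longer 2-fold past WT, which left 4 such genes. Both alternatives were chosen after the data were seen. Tfdp1, the partner of E2F factors, was at 131 and 132 FPKM in WT and 71.3 and 72.6 with miR-294 (-0.87 ± 0.06), and the Hippo regulator Wwc2 at 12 and 11.9 in WT and 6.30 and 6.25 with miR-294 (-0.83 ± 0.08).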

How the data were processed

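The authors deposited FPKM per gene and library, made with STAR 2.5.0 and Cufflinks 2.2.1 on mm10, per the submitters' processing notes. Each value is scaled to its library's total and keeps no read counts, so depth is unknown and intervals for counting error are not given. The libraries keep strand, per the labels' protocols, but strand use in counting is not given in the sources used here, so overlapping antisense genes cannot be told apart. Values were analysed as log2(FPKM + 1), with a pseudocount of 1. Genes with a mean of at least 1 FPKM over the 4 libraries were fitted with 4 group means over all 8 libraries by limma 3.58.1 (R 4.3.3, statmod 1.5.0, version 1.17.8 of data.table; moderated variance with trend, robust, two-sided, Benjamini-Hochberg over all genes tested). The fit was tested on simulated data. Gene types, strands and 3′ UTRs came from GENCODE M21, and hairpin positions from RefSeq (build GRCm38.p6). Of the entries, 43743 carry the GENCODE identifier version, 99.92% of them at the same coordinates. Named genes are Dgcr8, Mbnl1, Mbnl2, Lin28a and Myc, the largest 2-fold differences of each placement (5, 5 and 4 in each direction, without predicted, Rik, small RNA and pseudogene entries) and the 2 most different called members of each of 35 gene lists. The comparison, lists and rules were chosen with earlier results of these data known. Alternatives were another pseudocount, filter, scaling and fit, and leaving out each library.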

Additional observations from a re-analysis of the deposited data

How the results depend on the processing

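The number of genes called depended on the fit more than the number past 2-fold did. The 4 libraries alone called 6208 genes (2536 higher, 3672 lower), and weighting each library by its group's spread 6527 (2668 and 3859). The main fit shares 1 estimate of the spread per gene among all 8 libraries. The median SD of log2(FPKM + 1) within a group was 0.046 in WT and 0.049 with miR-294. It was larger in the groups outside the contrast, at 0.102 in Dgcr8 KO and 0.119 with siMbnl1/2. Leaving out 1 WT or miR-294 library left between 1294 and 1427 calls (641 to 678 higher, 653 to 771 lower), and most gene lists lost calls with them. Fewer FGF feedback (2 or 3 higher, 3 or 4 lower), glycolysis (3 higher, 1 or 2 lower) and germline genes (1 higher, 1 to 3 lower) were then called, and 1 MHC class I gene was lower. With a mean of at least 5 FPKM, 924 genes were called higher, 214 reached 2-fold (133 higher, 81 lower), 175 had Dgcr8 KO on the same side and 34 had it near WT; the bands then held 22 past WT, 301 near WT, 422 between and 113 near Dgcr8 KO. With a pseudocount of 0.1, 678 reached 2-fold (431 higher, 247 lower), 541 with Dgcr8 KO on the same side and 28 past WT, and the bands held 103 past WT and 45 beyond Dgcr8 KO. Genes 2-fold past WT numbered 3 to 8 when 1 library was left out. Taking a different WT library for each difference put 55 or 67 genes in the band past WT. Median-of-ratios scaling moved the median of all genes from -0.06 to -0.01 and quantile normalization to -0.02. Mbnl1 changed sign without WT replicate 1 (-0.0188) and without miR-294 replicate 1 (-0.00869), with a range of -0.0188 to 0.0594 over the libraries left out. Of 77 named genes called, 60 stayed called under each of the 14 alternatives that tested them, 17 lost the call in at least 1, and 0 changed direction. With the replicate number as a block, 2632 genes were called, 397 by at least 2-fold. The deviations of same-numbered libraries had a Pearson r of 0.0585 across genes, and the labels do not state that a number marks a shared day, so the numbers are not taken to pair the libraries. Outlying libraries cannot be tested for within groups of 2.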

Other observations

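Several further lists are given beside the shares over all genes, 11.7% called higher and 15.4% lower. Of 22 ATF4 and serine synthesis genes, 7 were higher and 4 lower (median 0.16, and -0.69 in Dgcr8 KO minus WT); the stress factor Nupr1 was at 39.4 and 34.6 FPKM in WT and 69.7 and 77.2 with miR-294 (0.97 ± 0.16). Of 25 glycolysis genes, 6 were higher and 4 lower, with the lactate exporter Slc16a3 at 21.2 and 18.9 in WT and 36.5 and 37.3 with miR-294 (0.85 ± 0.10) and the phosphofructokinase Pfkp higher by 0.71 ± 0.10. Of 19 mesenchymal and SRF target genes, 3 were higher and 4 lower (11.7% and 15.4% over all genes), and 0 or 1 higher and 2 lower without 1 WT or miR-294 library; the contractile genes Acta2 (6.58 and 6.72 in WT, 1.69 and 1.93 with miR-294, -1.45 ± 0.25) and Tagln (34.2 and 27.1 in WT, 13.4 and 13.1 with miR-294, -1.14 ± 0.13) were lower. Of 18 let-7 targets and oncofetal genes, 5 were higher and 2 lower, and Igf2bp2, an RNA-binding protein, was at 14.6 and 15.3 in WT, 31.1 and 30.4 in Dgcr8 KO, and 28.7 and 28.5 with miR-294 (0.89 ± 0.07). Of 19 germline genes silenced by DNA methylation, 4 were higher and 4 lower: the meiosis gene Stra8 was lower (-0.80 ± 0.09) and the homeobox gene Rhox9 higher (0.69 ± 0.09).

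Of 15 reference genes, 0 were higher and 3 lower (median -0.15), beside 11.7% and 15.4% of all genes. Hprt (-0.43 ± 0.11) lost its call without any 1 of the 4 WT and miR-294 libraries, and also under both other scalings. Gm22063, a small nuclear RNA entry on chromosome 8 (105172496 to 105172602), was listed at 0 in all WT, Dgcr8 KO and siMbnl1/2 libraries and at 279 and 200 FPKM with miR-294. It was picked after its values were seen, and FPKM of so short an entry can rest on few reads. Nlrp12, which lies over the miR-290 cluster on the other strand, was at 0.0486 and 0.0537 FPKM in WT, 2.05 and 6.27 in Dgcr8 KO, and 4.37 and 1.73 with miR-294 (1.86 ± 0.43, a call lost without WT replicate 1 or 2 or miR-294 replicate 1, adjusted p up to 0.109, limma), also picked after its values were seen; without known strand use in counting it cannot be told apart from the cluster's transcript.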
